A study of Mus musculus with 29 samples.

Results

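The 10 genes described here are Atf4, the gene of a transcription factor that cells use when amino acids run short or proteins fold badly, and 9 genes that are known to act with it or downstream of it. They were taken from the deposited count table by symbol, as 10 of its 20411 genes. All 10 symbols were present, and 9 genes had enough counts to be tested. Phgdh did not.

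Each library came from the heart of 1 BALB/c mouse of wildtype genotype with its own animal number, and the labels give no age. C26_REVERBa mice (10 hearts) received an adeno-associated virus that carries REV-ERBα, a nuclear receptor of the circadian clock, and then C26 cells, a mouse colon carcinoma line whose tumours are used to model cachexia, the wasting of body tissue in cancer. C26_GFP mice (10 hearts) received the same kind of virus with green fluorescent protein and then C26 cells, while PBS_REVERBa mice (5 hearts) and PBS_GFP mice (4 hearts) received these vectors and a saline injection in place of tumour cells. Every group, controls included, carries a vector, which was given 10 days before the tumour cells in the C26 groups. The Tbg promoter of the vector drives the cargo in hepatocytes and not in the heart. The question of the series is therefore what REV-ERBα made in the liver does to the heart of a tumour-bearing animal.

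When amino acids are lacking or unfolded protein builds up, kinases phosphorylate the initiation factor eIF2α, most protein synthesis slows and translation of Atf4 mRNA goes up. ATF4 protein then switches on genes of amino acid synthesis and import, together with Ddit3 and other regulators that can feed back on the response. In the heart, defects of mitochondria are known to engage the same response. Counts of mRNA do not show the translation of Atf4 or the amount of its protein.

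ATF4 binds composite elements with the letters TGATGNAA, and promoters of 3 of the 10 genes hold a match. These are printed because they show where such letters lie beside the genes of the set. The search covered both strands of RefSeq promoter windows of GRCm38.p6, which run from 250 bases before to 50 bases after a start that RefSeq lists for a gene, and motif matches did not overlap each other. A match was found in 3 of the 12 windows of the 10 genes and in 3.97% of all 32851 windows. Both Gdf15 windows lie upstream of the gene model whose reads were counted, so they do not cover its start. The capitals below mark the match, and each window is written 5′ to 3′ on the strand of its gene. The Asns window is chr6:7693160-7693459 on the minus strand, with the match 23 bases before the RefSeq start. The Chac1 window is chr2:119350992-119351291 on the plus strand, with the match 193 bases before the start and on the opposite strand. The Trib3 window is chr2:152344011-152344310 on the minus strand, with the match after the start and on the opposite strand.
Asns: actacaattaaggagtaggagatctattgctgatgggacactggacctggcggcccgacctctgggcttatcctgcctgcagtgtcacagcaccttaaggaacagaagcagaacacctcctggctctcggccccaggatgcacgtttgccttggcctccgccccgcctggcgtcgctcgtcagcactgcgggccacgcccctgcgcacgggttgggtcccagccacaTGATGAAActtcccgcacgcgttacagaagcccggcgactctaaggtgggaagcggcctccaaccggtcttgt
Chac1: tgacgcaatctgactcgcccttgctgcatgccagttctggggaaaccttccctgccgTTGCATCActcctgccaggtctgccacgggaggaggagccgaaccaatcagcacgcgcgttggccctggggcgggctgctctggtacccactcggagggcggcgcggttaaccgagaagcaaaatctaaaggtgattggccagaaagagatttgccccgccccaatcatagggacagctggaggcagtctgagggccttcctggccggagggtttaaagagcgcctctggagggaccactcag
Trib3: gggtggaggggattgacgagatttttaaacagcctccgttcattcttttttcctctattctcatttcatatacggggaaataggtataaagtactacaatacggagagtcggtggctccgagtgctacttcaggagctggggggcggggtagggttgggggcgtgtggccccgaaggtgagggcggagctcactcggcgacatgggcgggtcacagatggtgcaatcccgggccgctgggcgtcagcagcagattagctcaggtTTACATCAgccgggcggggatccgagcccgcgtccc
A match is a description of the sequence and does not by itself show binding. No match says only that these letters are not in the window, and nothing about ATF4 follows from it for the other 7 genes.

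The libraries held 3376113 to 7619837 counts in C26_REVERBa, 5684452 to 16853646 in C26_GFP, 3207497 to 5355029 in PBS_REVERBa and 3467940 to 14740569 in PBS_GFP hearts. Levels are given as CPM, counts scaled to library size with TMM factors, and 1 count was worth between 0.0600 and 0.307 CPM. Markers of heart muscle cells summed to between 42623 and 62834 CPM in every library, and markers of hepatocytes to at most 117 CPM. Hepatocyte sums were uneven, with medians of 10.9 CPM in C26_REVERBa, 1.84 CPM in C26_GFP, 0.766 CPM in PBS_REVERBa and 1.73 CPM in PBS_GFP hearts. The highest were 117 CPM in C26_REVERBa replicate 10 and 104 CPM in PBS_GFP replicate 2. The part of this RNA in the results was not tested. The heart C26_REVERBa replicate 9 stood apart, with 714 CPM of summed adipocyte markers, against a median of 242 CPM in its group. Results that turn on this heart are given with and without it. This heart also had the lowest heart muscle sum of its group (45567 CPM, median 57025 CPM) and the lowest skeletal muscle sum (2879 CPM). Its neutrophil and erythroid sums were the highest of its group (10.7 and 67.7 CPM). So was its atrial sum of 526.1 CPM, followed by 417 CPM in replicate 10, against a group median of 4.27 CPM. Atrial markers varied within every group, with sums up to 781 CPM in C26_GFP, 317 CPM in PBS_REVERBa and 634 CPM in PBS_GFP hearts. Nr1d1, the mouse gene of REV-ERBα, averaged 166 ± 42.9 CPM in C26_REVERBa hearts (SD, n = 10) and 137 ± 41.4 CPM in C26_GFP hearts (SD, n = 10), which does not check a vector that acts in the liver.

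Fold changes are log2 values with their standard errors from 1 edgeR quasi-likelihood model of all 29 libraries. A gene passed the test at a Benjamini-Hochberg adjusted p under 0.05 over the 12928 genes tested. The median log2 fold change over all tested genes lay within 0.0040 of 0 in each comparison. In whole-heart RNA, fewer cells of a type and less RNA per cell cannot be told apart.

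**Figure D1:**
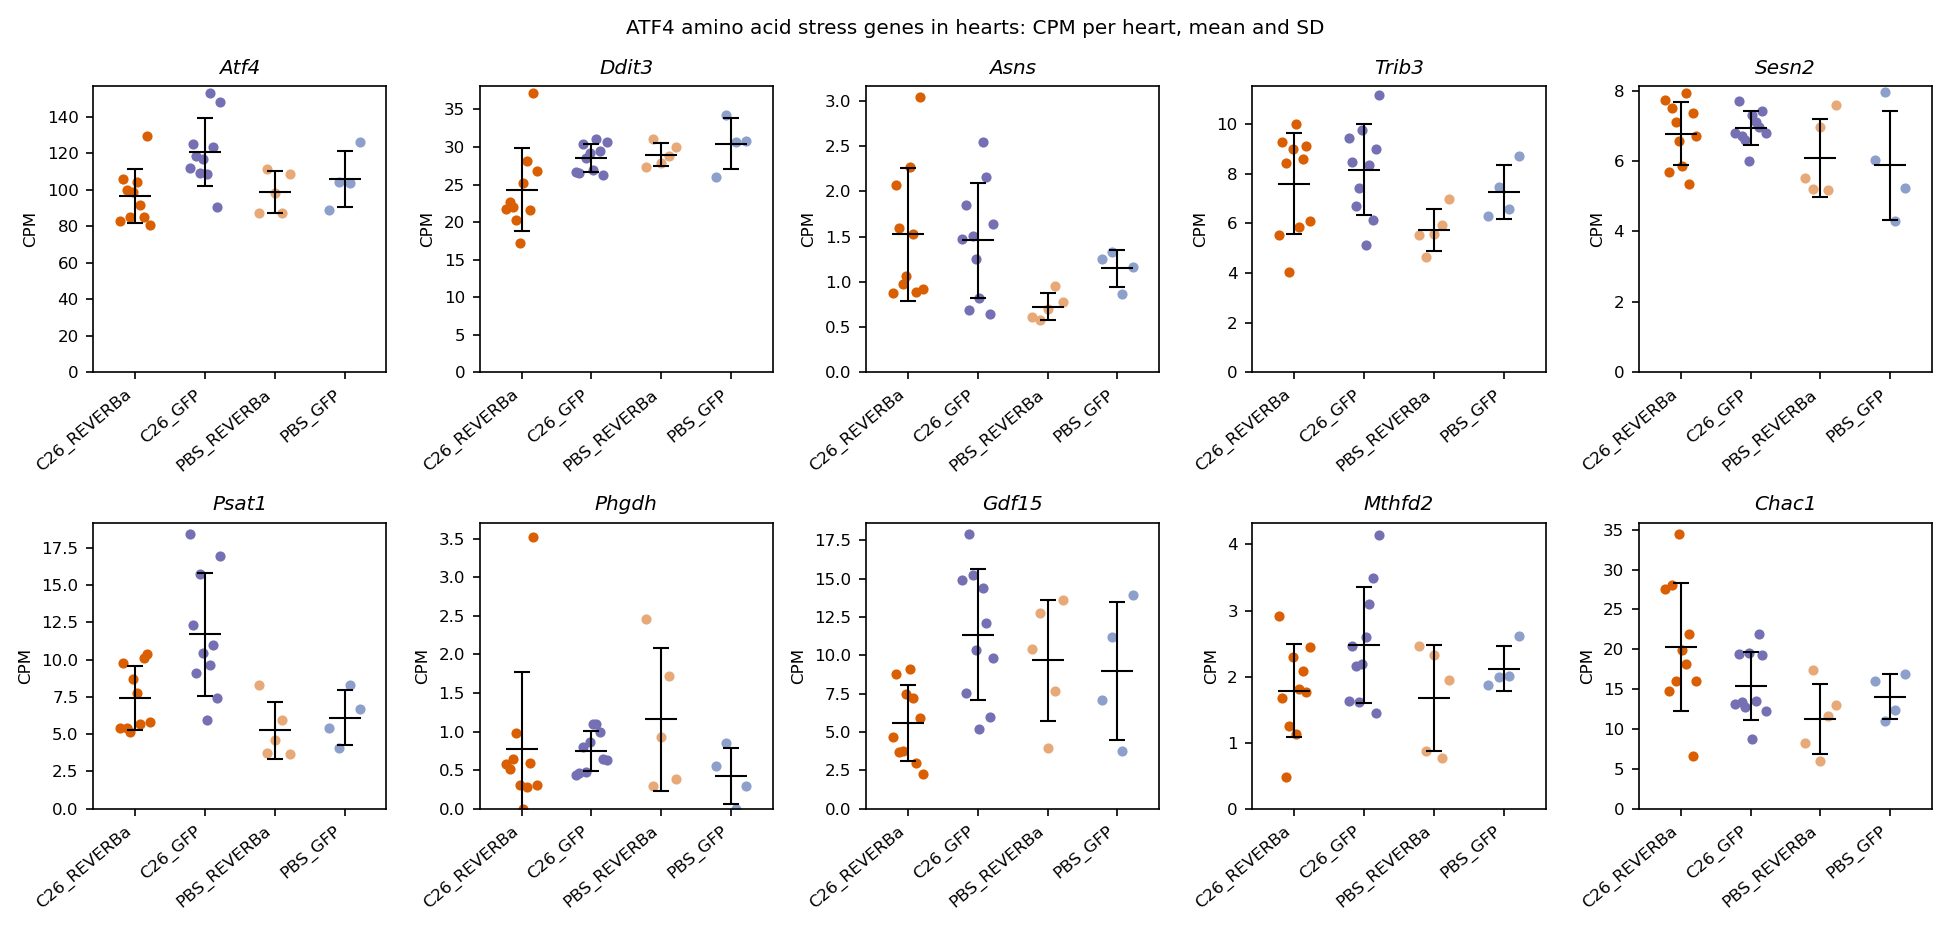
Level of each of the 10 genes in CPM (vertical axes, linear, from 0) in every heart of the 4 groups (points), with the mean and SD as black lines. Gdf15 and Psat1 sit lower in C26_REVERBa than in C26_GFP hearts, C26_REVERBa replicate 9 is the highest point of its group for Atf4 and Phgdh, and the groups overlap in every panel.

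Liver REV-ERBα in tumour-bearing mice went with lower heart mRNA of 3 of the 9 tested genes and higher mRNA of none. The 3 were Atf4 itself, the serine synthesis gene Psat1 and the hormone gene Gdf15. Across all tested genes, 7.20% passed in this comparison of C26_REVERBa over C26_GFP, 3.75% higher and 3.45% lower. The median of the 9 log2 fold changes was -0.23, with 7 negative and 2 positive. The direction was not shared by all members: Chac1 had a positive value that did not pass, and Asns, Trib3 and Sesn2 lay near 0. Summed heart muscle markers had a median of 57025 CPM in C26_REVERBa hearts (45567 to 59181) and 47579 CPM in C26_GFP hearts (42623 to 55454), and 1 of 8 passed as higher. Summed fibroblast markers had a median of 1138 CPM in C26_REVERBa hearts (863 to 1428) and 1345 CPM in C26_GFP hearts (996 to 1486), and 1 of 6 passed as lower. The part of these cell markers in the Atf4, Psat1 and Gdf15 results was not tested.

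Atf4 (NM_009716, chromosome 15, 80255184 to 80257545 on mm10) had a lowest, median and highest level of 80.7, 95.1 and 129.7 CPM in C26_REVERBa hearts, with a mean of 96.4 ± 14.8 CPM (SD, n = 10). In C26_GFP hearts these were 90.6, 118 and 153 CPM, with a mean of 121 ± 18.6 CPM (SD, n = 10). The groups overlapped, and 4 C26_REVERBa hearts lay below every C26_GFP heart. Atf4 fell by 0.32 ± 0.09 on the log2 scale, or 0.801-fold (edgeR adjusted p = 0.0298). This call was lost in 6 of the 20 fits that left out 1 heart of the pair of groups (C26_GFP replicates 7 and 10, C26_REVERBa replicates 1, 4, 7 and 10), with an edgeR adjusted p of at most 0.0726 and a log2 fold change between -0.38 and -0.28. With the compared groups alone in the fit, the log2 fold change was also -0.32 and the call was lost (edgeR adjusted p = 0.0565). Without C26_REVERBa replicate 9, the highest of its group, Atf4 changed by -0.38 (edgeR adjusted p = 0.00400).

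Without a tumour, Atf4 had 87.2, 112, 98.2, 87.2 and 109 CPM in the 5 PBS_REVERBa hearts. The 4 PBS_GFP hearts had 88.6, 104, 104 and 126 CPM. Only the 2 lowest PBS_REVERBa hearts lay outside the range of PBS_GFP, and the difference was -0.09 ± 0.13 (edgeR adjusted p = 1; 95% interval -0.37 to 0.18). C26_GFP hearts exceeded PBS_GFP hearts by 0.20 ± 0.12 (edgeR adjusted p = 0.22), and 2 of the 10 lay above every PBS_GFP heart. C26_REVERBa hearts differed from PBS_REVERBa hearts by -0.03 ± 0.11 (edgeR adjusted p = 0.898). The tumour effects with either vector differed by -0.23 ± 0.16 (interaction, edgeR adjusted p = 0.623), so they were not shown to differ. By mean level the order was C26_GFP, PBS_GFP, PBS_REVERBa and C26_REVERBa, and neighbours in this order differed by less than 1 SD of either group.

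Ddit3 encodes CHOP, a transcription factor that acts downstream of ATF4 and is linked to cell death under lasting stress. Its lowest, median and highest levels were 17.2, 22.4 and 37.1 CPM in C26_REVERBa hearts, against 26.3, 28.9 and 31.1 CPM in C26_GFP hearts. 7 C26_REVERBa hearts lay below every C26_GFP heart and 1, replicate 9, lay above them all. The difference was -0.23 ± 0.09 (edgeR adjusted p = 0.098) with that heart. Without it the value was -0.32, and Ddit3 passed (edgeR adjusted p = 0.00379). It also passed with that heart kept in limma voom with sample weights, at -0.30 (adjusted p = 0.0144).

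The PBS groups gave a narrow band for Ddit3. PBS_REVERBa hearts had 27.3, 31.0, 27.9, 28.7 and 29.9 CPM, and PBS_GFP hearts had 26.1, 34.3, 30.7 and 30.8 CPM. All PBS_REVERBa values lay inside the PBS_GFP range, and the difference was -0.07 ± 0.14 (edgeR adjusted p = 1). C26_GFP hearts differed from PBS_GFP hearts by -0.09 ± 0.12 (edgeR adjusted p = 0.611), again with no heart outside the PBS_GFP range. C26_REVERBa hearts differed from PBS_REVERBa hearts by -0.25 ± 0.11 (edgeR adjusted p = 0.163), with 8 of 10 below every PBS_REVERBa heart. That value became -0.34 (edgeR adjusted p = 0.0197) without C26_REVERBa replicate 9.

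Trib3 encodes a pseudokinase that is induced through ATF4 and CHOP and dampens their activity. It averaged 7.61 ± 2.03 CPM in C26_REVERBa hearts and 8.17 ± 1.83 CPM in C26_GFP hearts (SD, n = 10 each). The ranges, 4.04 to 10.0 CPM in C26_REVERBa and 5.13 to 11.2 CPM in C26_GFP hearts, were nearly the same, and the difference was -0.11 ± 0.15 (edgeR adjusted p = 0.703; 95% interval -0.40 to 0.19). Without a tumour Trib3 averaged 5.73 ± 0.855 CPM in PBS_REVERBa hearts (SD, n = 5) and 7.28 ± 1.08 CPM in PBS_GFP hearts (SD, n = 4). 4 of the 5 PBS_REVERBa hearts lay below every PBS_GFP heart, yet the difference of -0.31 ± 0.24 did not pass (edgeR adjusted p = 1). The tumour went with a Trib3 difference of 0.38 ± 0.20 in C26_REVERBa over PBS_REVERBa and of 0.18 ± 0.20 in C26_GFP over PBS_GFP (edgeR adjusted p = 0.248 and 0.536).

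Psat1 (NM_177420, chromosome 19, 15905123 to 15925059) encodes phosphoserine aminotransferase, which makes phosphoserine on the way to serine. It rose with the tumour in mice of the GFP vector and fell with liver REV-ERBα in tumour-bearing mice. Its lowest, median and highest levels were 5.16, 6.78 and 10.4 CPM in C26_REVERBa hearts, with a mean of 7.43 ± 2.17 CPM (SD, n = 10). C26_GFP hearts had 5.95, 10.7 and 18.5 CPM, with a mean of 11.7 ± 4.14 CPM (SD, n = 10). The groups overlapped over most of the C26_REVERBa range, and 5 C26_REVERBa hearts lay below every C26_GFP heart. Psat1 fell by 0.67 ± 0.19 on the log2 scale, or 0.629-fold (edgeR adjusted p = 0.0358). The call was lost in 10 of the 20 fits without 1 heart (C26_GFP replicates 1, 2, 4, 7 and 10, C26_REVERBa replicates 1, 3, 4, 7 and 10), where the log2 fold change over all 20 fits ran between -0.75 and -0.58 and the edgeR adjusted p was at most 0.0837. With the compared groups alone, the log2 fold change was again -0.67 and the call was lost (edgeR adjusted p = 0.064).

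In mice with the GFP vector, Psat1 was higher with the tumour. C26_GFP hearts had 5.95 to 18.5 CPM, against 5.40, 4.07, 8.32 and 6.69 CPM in PBS_GFP hearts. 8 of the 10 C26_GFP hearts lay above every PBS_GFP heart. The rise was 1.02 ± 0.28 on the log2 scale, or 2.02-fold (edgeR adjusted p = 0.00653), and it passed in all 14 fits without 1 heart. It was 0.70 and did not pass (edgeR adjusted p = 0.2) when the 3 C26_GFP and 2 PBS_GFP libraries with over 10000000 counts were left out, which leaves 2 PBS_GFP hearts. Summed heart muscle markers lay between 42623 and 55454 CPM in C26_GFP hearts and between 55990 and 59545 CPM in PBS_GFP hearts. Of the 8 markers 5 passed as lower and 1 as higher, where 14.0% and 14.2% of all tested genes did. The part of these markers in the Psat1 result was not tested. C26_REVERBa hearts had 5.16 to 10.4 CPM of Psat1, against 8.29, 3.77, 4.64, 5.94 and 3.69 CPM in PBS_REVERBa hearts, a difference of 0.50 ± 0.28 (edgeR adjusted p = 0.282). The tumour effects with either vector differed by -0.52 ± 0.39 (interaction, edgeR adjusted p = 0.653), so they were not shown to differ. A processed pseudogene, Gm3329, overlaps Psat1 on the opposite strand in GENCODE M21, which makes the Psat1 counts uncertain where the counting could split reads.

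Asns encodes asparagine synthetase, which makes asparagine and is a standard readout of ATF4 activity. It was close to the detection limit, with 3 to 19 counts in C26_REVERBa, 4 to 25 in C26_GFP, 2 to 5 in PBS_REVERBa and 3 to 18 in PBS_GFP libraries. Asns averaged 1.52 ± 0.735 CPM in C26_REVERBa hearts and 1.46 ± 0.631 CPM in C26_GFP hearts (SD, n = 10 each). The difference was 0.12 ± 0.25 (edgeR adjusted p = 0.815), with 1 C26_REVERBa heart, replicate 9, above every C26_GFP heart. Without that heart it was -0.05.

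The lowest Asns group was PBS_REVERBa. Its 5 hearts had 0.614, 0.579, 0.696, 0.958 and 0.778 CPM, and the 4 PBS_GFP hearts had 1.25, 1.33, 0.861 and 1.16 CPM. All but 1 of the PBS_REVERBa hearts lay below every PBS_GFP heart, on 2 to 5 counts each, and the difference of -0.67 ± 0.46 did not pass (edgeR adjusted p = 1). C26_REVERBa hearts exceeded PBS_REVERBa hearts by 1.03 ± 0.39 (edgeR adjusted p = 0.104), with 7 of 10 above every PBS_REVERBa heart. C26_GFP hearts differed from PBS_GFP hearts by 0.23 ± 0.34 (edgeR adjusted p = 0.699), where edgeR's bound for low counts raised the p above that of the standard error.

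Phgdh encodes the enzyme that opens serine synthesis from a glycolytic intermediate. It held 0 to 22 counts per library and was not tested. It averaged 0.772 ± 1.0015 CPM in C26_REVERBa and 0.750 ± 0.255 CPM in C26_GFP hearts (SD, n = 10 each), 1.16 ± 0.922 CPM in PBS_REVERBa hearts (SD, n = 5) and 0.424 ± 0.364 CPM in PBS_GFP hearts (SD, n = 4). The C26_REVERBa mean includes replicate 9 with 3.52 CPM on 22 counts, where the next heart had 0.976 CPM. Medians were 0.550 CPM in C26_REVERBa and 0.721 CPM in C26_GFP hearts. C26_REVERBa replicate 6 and PBS_GFP replicate 3 had 0 counts, which allow up to 0.568 and 0.861 CPM (3 counts per library, counting error only). In a fit without the filter on low counts, with replicate 9 kept, no comparison of Phgdh passed, and the edgeR adjusted p was 0.99 for C26_REVERBa over C26_GFP. The annotation also lists a pseudogene of Phgdh, so these few counts are uncertain in source.

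Mthfd2 encodes a mitochondrial folate enzyme that draws on the carbon units that serine supplies. Its lowest, median and highest levels were 0.479, 1.79 and 2.92 CPM in C26_REVERBa hearts, against 1.45, 2.32 and 4.15 CPM in C26_GFP hearts. 3 C26_REVERBa hearts lay below every C26_GFP heart. The difference was -0.46 ± 0.24 (edgeR adjusted p = 0.232; 95% interval -0.94 to 0.02). Mthfd2 averaged 1.67 ± 0.802 CPM in PBS_REVERBa hearts (SD, n = 5) and 2.12 ± 0.336 CPM in PBS_GFP hearts (SD, n = 4), and this difference of -0.32 ± 0.39 did not pass (edgeR adjusted p = 1). Mthfd2 differed by 0.11 ± 0.34 in C26_REVERBa over PBS_REVERBa and by 0.25 ± 0.31 in C26_GFP over PBS_GFP (edgeR adjusted p = 0.882 and 0.591). A further annotated transcript, Gm43890, overlaps Mthfd2, and another, Gm12981, overlaps Sesn2.

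Chac1 encodes an enzyme that breaks down glutathione, and it is a sensitive target of ATF4 in cultured cells. It was the member with the most positive difference between the tumour groups. Lowest, median and highest levels were 6.56, 19.0 and 34.5 CPM in C26_REVERBa hearts, against 8.69, 13.5 and 21.9 CPM in C26_GFP hearts. 4 C26_REVERBa hearts lay above every C26_GFP heart, while replicate 9 was the lowest of all tumour-bearing hearts. The difference was 0.41 ± 0.20 (edgeR adjusted p = 0.206). Without replicate 9 it was 0.52, and Chac1 passed (edgeR adjusted p = 0.0488).

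C26_REVERBa hearts, at 6.56 to 34.5 CPM of Chac1, also stood against PBS_REVERBa hearts with 8.29, 17.4, 6.03, 11.7 and 13.03 CPM, a difference of 0.85 ± 0.28 on the log2 scale. This value did not pass (edgeR adjusted p = 0.0649), although 6 of 10 hearts lay above every PBS_REVERBa heart. It passed without C26_REVERBa replicate 9 (0.95, edgeR adjusted p = 0.0189) and in DESeq2 (adjusted p = 0.0246). C26_GFP hearts had 8.69 to 21.9 CPM, against 16.1, 10.98, 12.3 and 16.86 CPM in PBS_GFP hearts, a difference of 0.12 ± 0.28 (edgeR adjusted p = 0.79). PBS_REVERBa hearts differed from PBS_GFP hearts by -0.31 ± 0.34 (edgeR adjusted p = 1). The tumour effects with either vector differed by 0.73 ± 0.40 (interaction, edgeR adjusted p = 0.517), so the larger Chac1 value with REV-ERBα was not shown to differ from that with GFP.

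Sesn2 encodes a sestrin that restrains the growth kinase complex mTORC1 when leucine is low. Its levels in the tumour groups lay close together, with 6.78 ± 0.905 CPM in C26_REVERBa hearts and 6.94 ± 0.477 CPM in C26_GFP hearts (SD, n = 10 each). The difference was -0.02 ± 0.10 (edgeR adjusted p = 0.999; 95% interval -0.22 to 0.18), where edgeR's bound for low counts raised the p. PBS_REVERBa hearts averaged 6.09 ± 1.11 CPM (SD, n = 5) and PBS_GFP hearts 5.88 ± 1.55 CPM (SD, n = 4). Sesn2 differed by 0.15 ± 0.13 in C26_REVERBa over PBS_REVERBa and by 0.18 ± 0.13 in C26_GFP over PBS_GFP (edgeR adjusted p = 0.541 and 0.539, both raised by the same bound). No comparison of Sesn2 passed, and its values near 0 changed sign under several settings.

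Gdf15 (NM_011819, chromosome 8, 70629394 to 70631635) encodes a secreted hormone that lowers appetite through a hindbrain receptor and is released under cellular stress. It had the most negative difference of the 9 genes between the tumour groups. Lowest, median and highest levels were 2.29, 5.29 and 9.08 CPM in C26_REVERBa hearts, with a mean of 5.59 ± 2.46 CPM (SD, n = 10). In C26_GFP hearts they were 5.20, 11.3 and 17.9 CPM, with a mean of 11.3 ± 4.28 CPM (SD, n = 10). 5 C26_REVERBa hearts lay below every C26_GFP heart, and none lay above the median of C26_GFP. Gdf15 fell by 1.0009 ± 0.26 on the log2 scale, or 0.4997-fold (edgeR adjusted p = 0.0227), and it passed in all 20 fits without 1 heart (edgeR adjusted p of at most 0.0454).

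Macrophages are among the cells that can make Gdf15. Summed macrophage markers ranged between 351 and 495 CPM in C26_REVERBa hearts and between 400 and 655 CPM in C26_GFP hearts. In C26_REVERBa over C26_GFP 2 of the 8 markers passed as lower, where 3.45% of all tested genes did. The sums ranged between 273 and 389 CPM in PBS_REVERBa hearts and between 343 and 425 CPM in PBS_GFP hearts. In C26_GFP over PBS_GFP 4 of 8 passed as higher, where 14.2% of all tested genes did. In C26_REVERBa over PBS_REVERBa 4 of 8 also passed as higher, where 4.05% of all tested genes did. The Gdf15 difference in that comparison was negative and did not pass. None of these markers was at 0 in a whole group. Their part in the Gdf15 result was not tested.

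The tumour itself did not go with a called change of Gdf15. C26_GFP hearts had 5.20 to 17.9 CPM, against 7.07, 11.2, 3.73 and 13.96 CPM in PBS_GFP hearts. The difference was 0.34 ± 0.34 (edgeR adjusted p = 0.487), with 4 of 10 C26_GFP hearts above every PBS_GFP heart. C26_REVERBa hearts had 2.29 to 9.08 CPM, against 10.4, 12.7, 3.95, 7.66 and 13.6 CPM in PBS_REVERBa hearts. That difference was -0.77 ± 0.34 (edgeR adjusted p = 0.16), with 4 of 10 C26_REVERBa hearts below every PBS_REVERBa heart. Between the groups without a tumour, Gdf15 differed by 0.10 ± 0.40 in PBS_REVERBa over PBS_GFP (edgeR adjusted p = 1). Each PBS group held hearts below and above the median C26_REVERBa heart. The tumour effects with either vector differed by -1.10 ± 0.48 (interaction, unadjusted p = 0.0278 and edgeR adjusted p = 0.434), so they were not shown to differ.

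**Figure D2:**
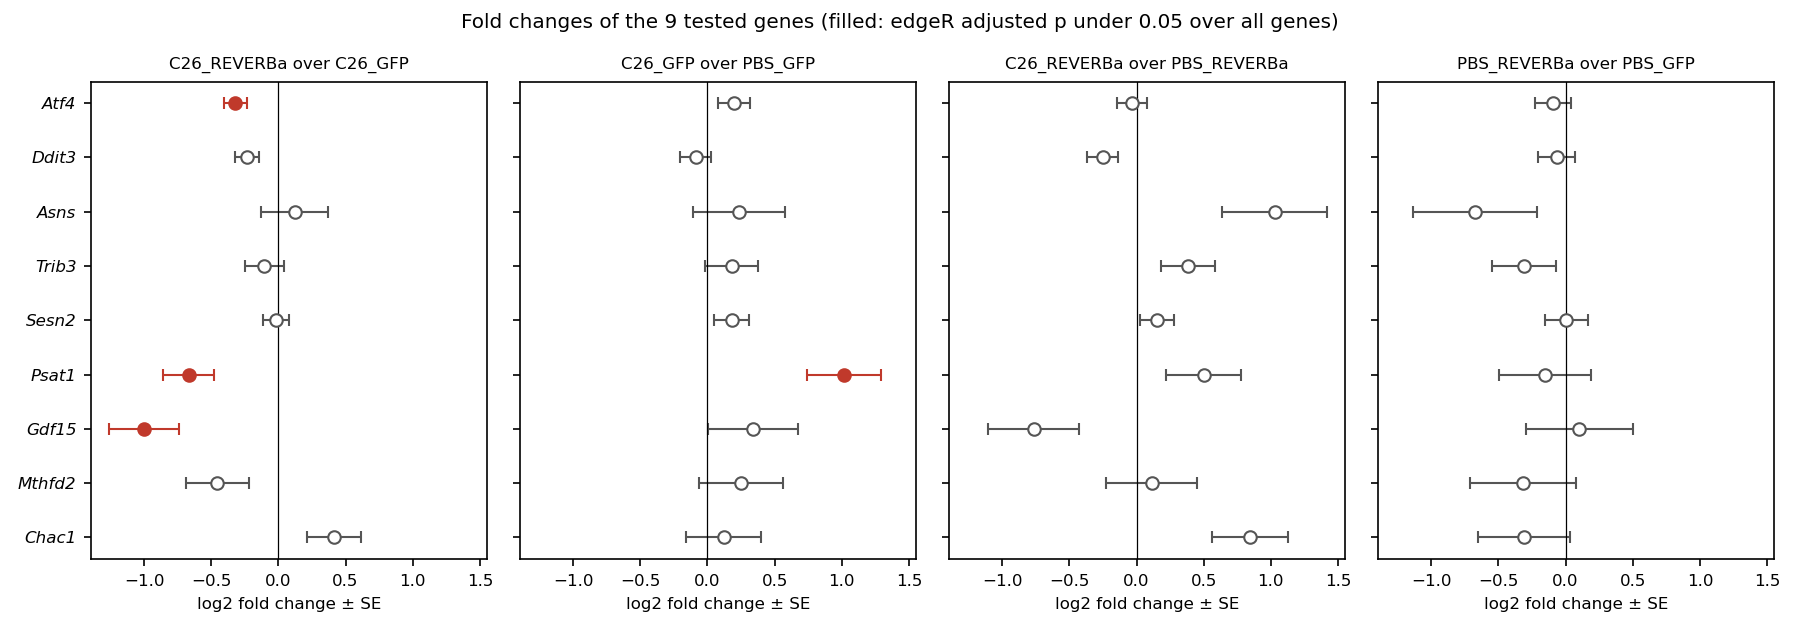
Log2 fold change (horizontal axis) with its standard error for the 9 tested genes in 4 comparisons, from 1 edgeR model; filled points passed at an adjusted p under 0.05 over all tested genes. Atf4, Psat1 and Gdf15 are filled left of 0 in C26_REVERBa over C26_GFP, Psat1 is filled right of 0 in C26_GFP over PBS_GFP, and no point is filled in the other comparisons.

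Counted over the members, 1 of 9 passed as higher in C26_GFP over PBS_GFP (Psat1) and none as lower, where 28.2% of all tested genes passed, 14.2% higher and 14.0% lower. The median of the 9 log2 fold changes was 0.20, with 8 positive. In C26_REVERBa over PBS_REVERBa 0 of 9 passed with edgeR, where 7.23% of all tested genes passed, 4.05% higher and 3.19% lower. There, 4 members (Ddit3, Asns, Gdf15 and Chac1) had an unadjusted p under 0.05, DESeq2 called 1 member (Chac1), and limma voom with sample weights called 1 (Ddit3). The median was 0.15.

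No member passed for liver REV-ERBα without a tumour. In PBS_REVERBa over PBS_GFP 0 of 9 members passed and none had an unadjusted p under 0.05, where 0% of all tested genes passed with edgeR and 530 genes had an unadjusted p under 0.05. The median of the 9 was -0.15. DESeq2 and limma voom also called no member, and limma voom called 1 gene of all. In the interaction of tumour and vector 0 of 9 members and 0% of all tested genes passed with edgeR, 1 member (Gdf15) and 1357 genes had an unadjusted p under 0.05, and DESeq2 and limma voom called no member but 15 and 4 genes of all. The comparisons share groups: C26_GFP is in the tumour and vector comparisons alike, so their values are not independent.

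No member had groups that were fully separate in any of the 4 comparisons. Over all tested genes, separate groups were found for 0.0155% (higher) and 0.00774% (lower) in C26_REVERBa over C26_GFP. The shares were 5.65% and 6.31% in C26_GFP over PBS_GFP, 1.10% and 0.774% in C26_REVERBa over PBS_REVERBa, and 0.859% and 0.774% in PBS_REVERBa over PBS_GFP.

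Between genes, levels were compared per kilobase of the deposited gene length. In PBS_GFP hearts Atf4 was highest with a mean of 61.1 CPM per kilobase, followed by Ddit3 with 37.9. Chac1 (8.96) and Gdf15 (8.28) came next and did not differ beyond their SDs of 1.82 and 4.15. Trib3 (3.55), Psat1 (2.82) and Sesn2 (2.21 CPM per kilobase) followed, while Mthfd2 (1.02), Asns (0.596) and Phgdh (0.227 CPM per kilobase) were lowest. In C26_REVERBa hearts Chac1 had 12.96 ± 5.11 CPM per kilobase and Gdf15 5.15 ± 2.27, while in C26_GFP hearts Chac1 had 9.81 ± 2.73 and Gdf15 10.5 ± 3.95 CPM per kilobase (SD, n = 10 each), so the pair differed by less than 1 SD of either gene in C26_GFP hearts. Mthfd2, Asns and Phgdh were the 3 lowest members in every group.

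The counts in the lists that follow stand beside these shares of all tested genes: 3.75% passed as higher and 3.45% as lower in C26_REVERBa over C26_GFP, 14.2% and 14.0% in C26_GFP over PBS_GFP, and 4.05% and 3.19% in C26_REVERBa over PBS_REVERBa. These lists were chosen with earlier results of these data known. Upstream of ATF4, 13 genes of eIF2α kinases, phosphatases and their partners were tested. In C26_REVERBa over C26_GFP 1 passed as higher and 1 as lower. The lower one was Ppp1r15a, which encodes the stress-induced subunit that directs eIF2α dephosphorylation, with 41.9 ± 6.95 CPM in C26_REVERBa and 65.3 ± 20.7 CPM in C26_GFP hearts (SD, n = 10 each; -0.64 ± 0.14, edgeR adjusted p = 0.0119). The higher one was Eif2ak2, the gene of the kinase PKR, at 0.29 ± 0.09 (edgeR adjusted p = 0.0375). In C26_GFP over PBS_GFP 4 passed as higher and 3 as lower, with Ppp1r15a at 0.74 ± 0.19 (edgeR adjusted p = 0.00426) and Oma1, a mitochondrial protease that relays stress to the kinase HRI, at -0.37 ± 0.09 (edgeR adjusted p = 0.0018).

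Of 8 further leucine zipper factors and cofactors that can act with ATF4, 2 passed as lower in C26_REVERBa over C26_GFP and none as higher. Atf3, an early stress factor, averaged 7.34 ± 6.4995 CPM in C26_REVERBa and 21.0 ± 15.6 CPM in C26_GFP hearts (SD, n = 10 each; -1.48 ± 0.38, edgeR adjusted p = 0.0227). Cebpb, a factor of the acute phase response, averaged 177 ± 55.9 CPM in C26_REVERBa and 278 ± 96.0 CPM in C26_GFP hearts (SD, n = 10 each; -0.65 ± 0.19, edgeR adjusted p = 0.0398). Atf3 was also the 1 gene of the 8 that passed in C26_GFP over PBS_GFP, at 1.59 ± 0.55 (edgeR adjusted p = 0.0298).

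Among 9 tested amino acid transporters, Slc3a2 was the single gene that passed in C26_REVERBa over C26_GFP. It encodes the heavy chain that carries several amino acid exchangers to the cell surface. Its lowest, median and highest levels were 53.5, 75.1 and 94.4 CPM in C26_REVERBa hearts, against 79.9, 98.8 and 145 CPM in C26_GFP hearts, and it fell by 0.51 ± 0.10 on the log2 scale (edgeR adjusted p = 0.00973). In C26_GFP over PBS_GFP Slc3a2 rose by 1.21 ± 0.15, or 2.32-fold (edgeR adjusted p = 1.27e-06), with C26_GFP hearts between 79.9 and 145 CPM and PBS_GFP hearts between 40.5 and 47.7 CPM. Slc43a1 and Slc6a9 also passed as higher there, by 1.05 ± 0.27 and 0.57 ± 0.17 (edgeR adjusted p = 0.00388 and 0.0151), and Slc1a4 as lower.

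Of 20 cytosolic tRNA synthetases, which load tRNAs with amino acids, none passed in C26_REVERBa over C26_GFP. In C26_GFP over PBS_GFP 6 passed as higher, where 14.2% of all tested genes did, and none as lower, among them Vars, Kars, Mars and Sars, with log2 fold changes of 0.41, 0.24, 0.34 and 0.23. The median of the 20 was 0.05 there.

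Of 17 tested enzymes of serine, folate, proline and sulphur amino acid metabolism, 15 did not pass in C26_REVERBa over C26_GFP, and the median log2 fold change was 0.04. In that comparison 2 passed as higher, where 3.75% of all tested genes did, Aldh1l2 by 0.43 ± 0.13 and Gpt2 by 0.28 ± 0.09 (edgeR adjusted p = 0.0426 and 0.0477), and none as lower. Aldh1l2, a mitochondrial folate enzyme, averaged 18.6 ± 3.17 CPM in C26_REVERBa and 13.8 ± 3.78 CPM in C26_GFP hearts (SD, n = 10 each). In C26_GFP over PBS_GFP Aldh1l2 and Aldh18a1 passed as lower, by -0.51 ± 0.17 and -0.59 ± 0.20, while Pck2 passed as higher.

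Among 14 tested genes known as ATF4 targets in other settings, 3 passed as lower and 1 as higher in C26_REVERBa over C26_GFP. Ddit4, an inhibitor of mTORC1, averaged 121 ± 54.1 CPM in C26_REVERBa and 239 ± 127 CPM in C26_GFP hearts (SD, n = 10 each; -0.98 ± 0.30, edgeR adjusted p = 0.0422). Eif4ebp1, a repressor of cap-dependent translation, changed by -0.51 ± 0.13 and the autophagy gene Map1lc3b by -0.31 ± 0.08 (edgeR adjusted p = 0.0185 and 0.0289). The higher gene was Atg5 at 0.24 ± 0.07 (edgeR adjusted p = 0.0473), named after its value was seen. In C26_GFP over PBS_GFP 4 passed as higher, Ddit4, Eif4ebp1, Map1lc3b and Sqstm1, by 1.91, 0.81, 0.61 and 0.73, and 1 as lower.

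Lists of neighbouring responses were set beside these. Of 18 endoplasmic reticulum chaperones and targets of XBP1 and ATF6, 3 passed as lower in C26_REVERBa over C26_GFP and none as higher, with Xbp1 at -0.41 ± 0.12 and Atf6 at -0.33 ± 0.09 (edgeR adjusted p = 0.0378 and 0.0307), and 4 passed as higher in C26_GFP over PBS_GFP. Of 8 mitochondrial protein folding genes, 1 passed as higher in C26_REVERBa over C26_GFP, Hspa9 by 0.16 ± 0.05, and 4 as lower in C26_GFP over PBS_GFP. Of 12 sestrin, GATOR and amino acid sensing genes, none passed in C26_REVERBa over C26_GFP, while 3 passed as higher in C26_GFP over PBS_GFP, Sesn1 among them at 0.63 ± 0.15 (edgeR adjusted p = 0.00177), and 1 as lower. Of 12 relatives of the 10 genes, none passed in C26_REVERBa over C26_GFP, and in C26_GFP over PBS_GFP 1 rose (Sesn1, which is in both lists) and 3 fell, Chac2 among them at -0.55 ± 0.13 (edgeR adjusted p = 0.00216).

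**Figure D3:**
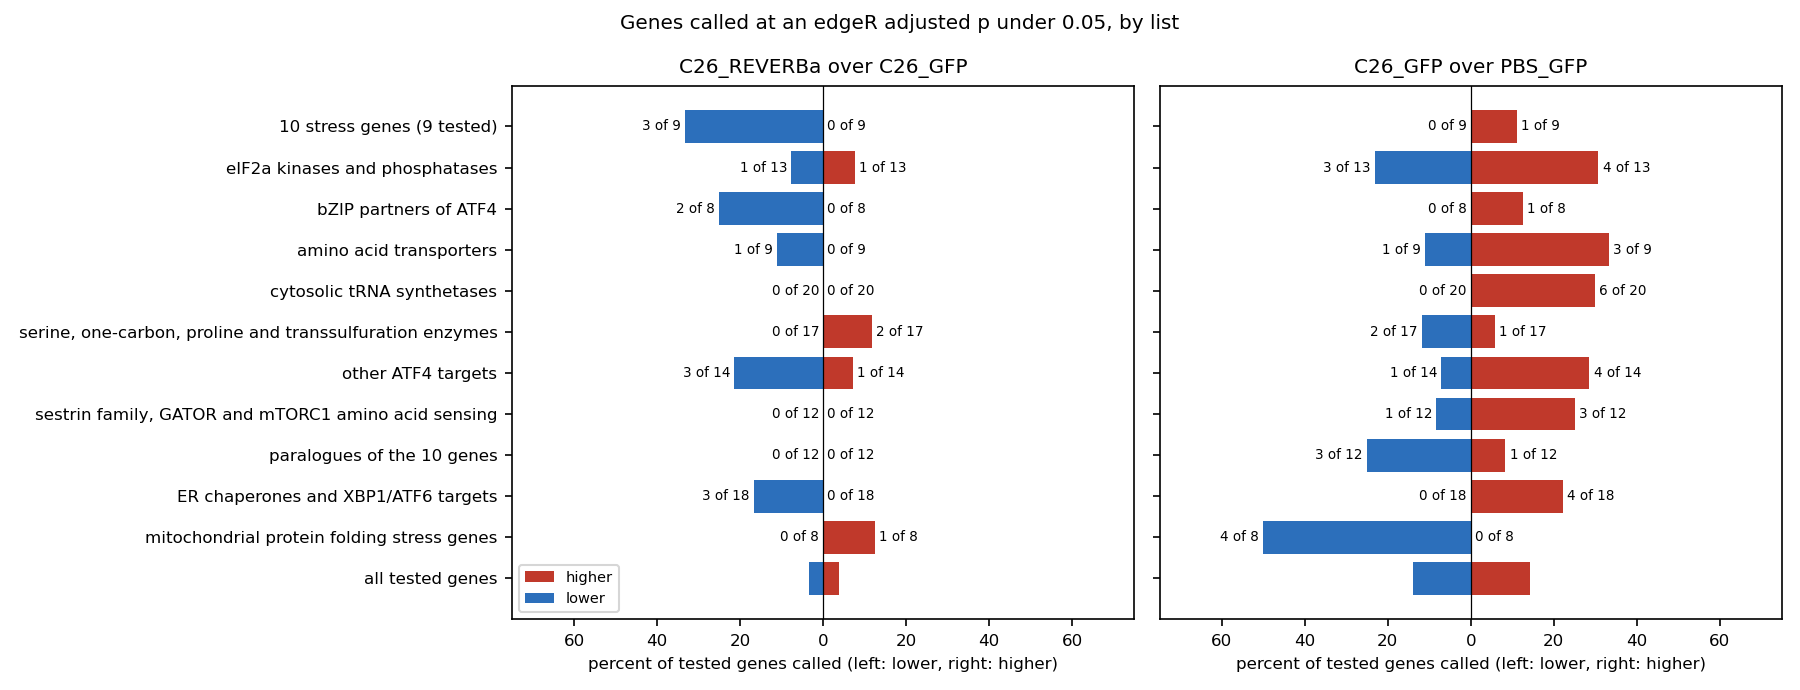
Percent of tested genes in each list (rows) that passed as lower (bars to the left) or higher (bars to the right), with the count beside each bar and all tested genes in the last row. In C26_REVERBa over C26_GFP 3 of 9 stress genes and 3 of 14 other ATF4 targets passed as lower against 3.45% of all genes. There, 1 of the 14 other targets passed as higher against 3.75%. In C26_GFP over PBS_GFP 1 of 9 stress genes passed as higher against 14.2%. The genes and lists were chosen with earlier results of these data known.

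In PBS_REVERBa over PBS_GFP no gene of these 10 lists passed. In C26_REVERBa over PBS_REVERBa 1 transporter (Slc3a2, 0.57 ± 0.13, edgeR adjusted p = 0.0102) and 4 of the 14 other ATF4 targets passed as higher, where 4.05% of all tested genes did, Ddit4 among them at 1.35 ± 0.41 (edgeR adjusted p = 0.0402). In the same comparison 1 tRNA synthetase, 1 sestrin or GATOR list gene and 1 endoplasmic reticulum gene passed as higher, and 1 relative of the 10 genes, Trib2, as lower.

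Members were next compared with each other among tumour-bearing hearts, within each group, over 72 pairs in all. Atf4 and Asns varied together in C26_REVERBa hearts (Pearson r = 0.92, permutation p = 0.00032, adjusted p = 0.023 over the 72 pairs, n = 10 hearts). Spearman's rho was 0.92 (permutation p = 0.00063, adjusted p = 0.0454), and r was 0.87 without the 2 hearts farthest from the median of Atf4. In C26_GFP hearts the same pair had r = 0.72 and rho = 0.78 (permutation p = 0.017 and 0.0108, adjusted p = 0.204 and 0.194), and r = 0.40 without the 2 farthest hearts. This was the 1 pair of 72 that passed.

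None of the other pairs passed. In C26_REVERBa hearts the median r over 36 pairs was 0.00316, with 18 positive, and in C26_GFP hearts it was 0.138, with 25 positive. Pairs among Atf4, Asns, Trib3, Psat1 and Gdf15 all had a positive r in both groups. Their r ran between 0.37 and 0.92 in C26_REVERBa and between 0.12 and 0.72 in C26_GFP hearts. Without the 2 farthest hearts, Atf4 and Gdf15 (-0.07) and Trib3 and Gdf15 (-0.49) turned negative in C26_GFP hearts. These genes were picked out after their values were seen. Ddit3 and Chac1 had r = -0.83 and rho = -0.65 in C26_REVERBa hearts (permutation p = 0.00535 and 0.0494, adjusted p = 0.128 and 0.305), and r = -0.30 without the 2 hearts farthest from the median of Ddit3, so the value rests on those hearts. Atf4 and Mthfd2 had r = 0.82 and rho = 0.73 in C26_GFP hearts (permutation p = 0.00394 and 0.0209, adjusted p = 0.128 and 0.301), and r = 0.80 without the 2 farthest hearts, but r = -0.32 in C26_REVERBa hearts.

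**Figure D4:**
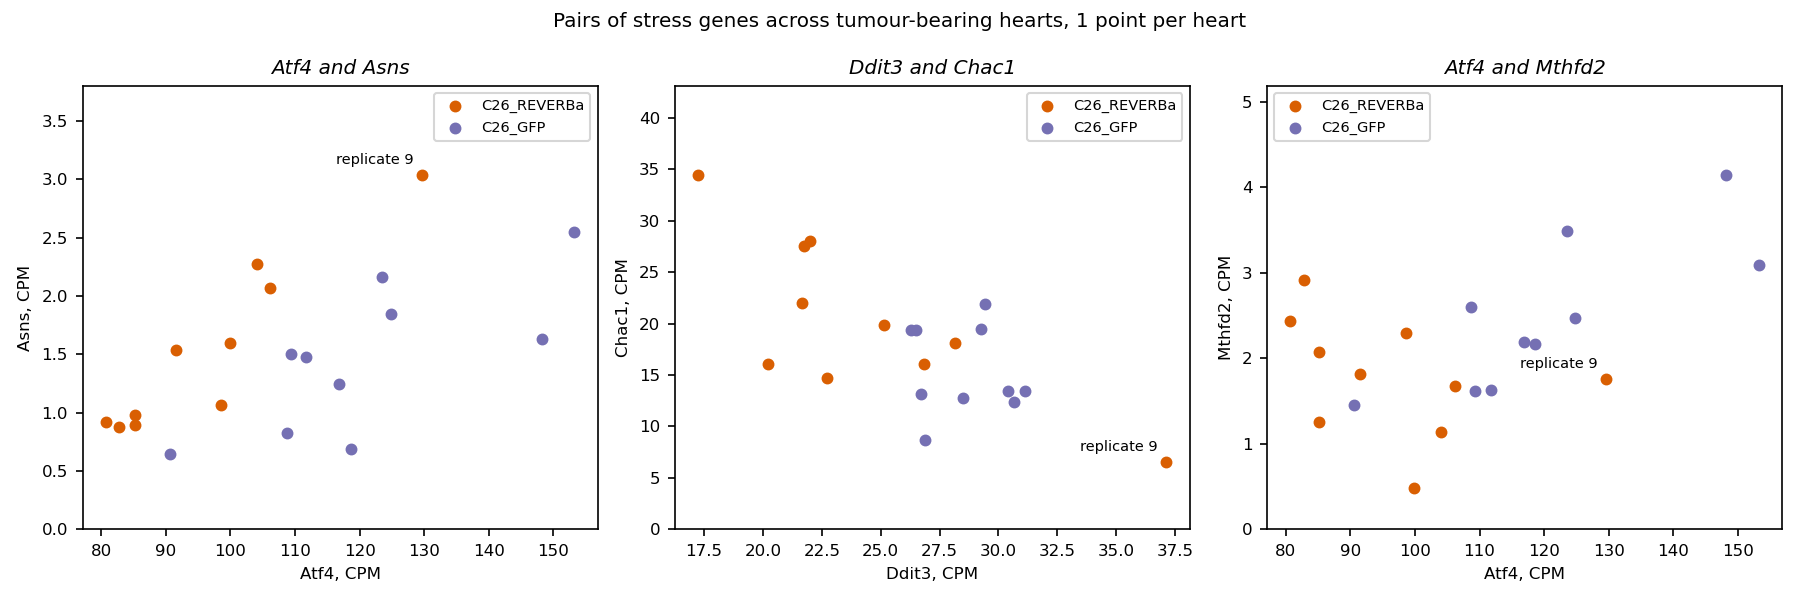
Levels in CPM of 3 pairs of genes in the 10 C26_REVERBa and 10 C26_GFP hearts, 1 point per heart. Atf4 and Asns have r = 0.92 in C26_REVERBa hearts and 0.72, which did not pass, in C26_GFP hearts on the log2 scale, and C26_REVERBa replicate 9 is the point with the most Atf4 and Asns and with the least Chac1 of its group.

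Over all 29 hearts, with the mean of each group taken off, the tested gene most like Atf4 was Ifrd1 (Pearson r = 0.87 of log2 CPM), followed by Abra (0.85) and Rbm12b1 (0.84). The gene most like Psat1 was Uri1 (0.83), for Asns it was Chd7 (0.83), for Trib3 Ccpg1 (0.82), for Gdf15 Vegfa (0.77) and for Chac1 Stau2 (0.74), followed by Trib1 (0.72). For Ddit3 it was Cd1d1 (0.72, but a Spearman's rho of 0.47), for Sesn2 Hmg20b (0.70) and for Mthfd2 1700025G04Rik (0.64). Values without C26_REVERBa replicate 9 were not taken for these likenesses. No member was among the 3 genes most like another member. These are the highest values among 12928 genes, the hearts share their library depth across genes, and the values are given as a description.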

How the data were processed

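Hearts were lysed from about 200 mg of tissue, and stranded libraries were made from 50 to 100 ng of total RNA with no selection for polyadenylated RNA and read as 50 bp pairs, per the labels' protocols. The deposited values are raw counts of reads for each RefSeq gene in 1 table that also gives gene lengths, and they are whole numbers with unequal totals. STAR 2.4.2a, DESeq2 1.24.0 and mm10 are named in the submitters' processing notes with no roles. Which tool counted the reads, and with which strand setting, the labels do not say. Columns were used only under a name that fits a sample's labels, and 1 column that fits none was left out.

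The deposited counts went into edgeR 4.0.16 (R 4.3.3). The filterByExpr step (10 counts as minimum, 15 in total) kept 12928 of 20411 genes. A quasi-likelihood fit with TMM factors, a mean per group and no covariate used the 29 libraries of the 4 groups together. Standard errors are the absolute log2 fold change over the root of F, intervals are 95% intervals, and edgeR raises the p of some genes with low counts by a Poisson bound. P-values were adjusted over all tested genes by Benjamini-Hochberg and called under 0.05. Correlations used log2 CPM (prior count 2) with 100000 two-sided permutations, adjusted over 72 pairs.

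The 10 genes and the 10 lists (134 entries, 131 tested, 5 found by an older symbol) were chosen with earlier results of these data known. All 10 genes are named, with up to 4 genes of each list by smallest p in C26_GFP over PBS_GFP or C26_REVERBa over C26_GFP and the 3 genes most like each member. Gene models came from GENCODE M21 and promoters from RefSeq (GRCm38.p6). The procedure was tested on simulated data: for C26_REVERBa over C26_GFP it recovered 77% of 100 genes changed 1.5-fold and 96% of 100 changed 2-fold, with 7 false calls among 12928, and for C26_GFP over PBS_GFP 69% and 90%, with 4. The changed genes were drawn at random from all tested genes, so these shares need not hold for genes with few counts, such as Asns and Mthfd2. Each of 406 pairs of libraries differed by more than sampling noise (chi-square over its degrees of freedom at least 2.73). Alternatives were RLE and upper quartile factors, DESeq2 1.42.0, limma 3.58.1 voom with sample weights, no filter, a stricter filter (1 CPM in 10 libraries), the compared groups alone, a replicate block, atrial markers as a covariate, no libraries over 10000000 counts, thinning to the smallest total, and leaving out each heart.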

Additional observations from a re-analysis of the deposited data

Results flagged for a closer look

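In each group of 4 to 10 hearts, the highest and lowest level of each gene was set against the gap to its neighbour, in 40 groups of values. C26_REVERBa replicate 9 stood apart for 2 genes. It had 129.651 CPM of Atf4, where the next heart of its group had 106 CPM, and 3.52138 CPM of Phgdh, where the next had 0.976 CPM. The Phgdh value rests on 22 counts. Chance marks about 1 in 20 such groups, which for 40 groups comes to 2. This is also the heart with the most adipocyte markers (714 CPM) and, within its group, the most atrial and the least heart muscle markers. The part of these in the values was not tested.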

How the results depend on the processing

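Under the 11 alternatives other than leaving out a heart, the called log2 fold changes kept their sign. In C26_REVERBa over C26_GFP they ran between -1.17 and -0.98 for Gdf15, -0.37 and -0.30 for Atf4, and -0.91 and -0.62 for Psat1, and in C26_GFP over PBS_GFP between 0.70 and 1.25 for Psat1. The adjusted p missed 0.05 under 1 of them for Gdf15 and for Psat1 in C26_GFP over PBS_GFP, and under 2 for Atf4 and Psat1 in C26_REVERBa over C26_GFP. Without libraries over 10000000 counts, C26_GFP over PBS_GFP had 0 members called and 1972 genes, and thinning gave 2311 genes. For C26_REVERBa over C26_GFP, the compared groups alone gave 1 member (Gdf15) and 327 genes, thinning 406 genes, and limma voom 4 members, Ddit3 added, and 1772 genes. C26_REVERBa over PBS_REVERBa had 1 member called in DESeq2 and 1 in limma voom, and 518 genes after thinning. PBS_REVERBa over PBS_GFP had 1 gene called with the compared groups alone and 1 in limma voom. The interaction had 15 genes called in DESeq2 and 4 in limma voom. The cause was not tested.

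Replicate numbers are shared between groups but belong to different animals. Over same-numbered pairs, deviations from the group means correlated between -0.346 and 0.216 in C26_REVERBa over C26_GFP, with 2 of 10 pairs over 0.1, and in no pair over 0.1 in the other comparisons, so the numbers do not pair the hearts. With a replicate block, C26_REVERBa over C26_GFP had 0 members called and 291 genes, with log2 fold changes of -0.32 for Atf4, -0.62 for Psat1 and -1.035 for Gdf15 (edgeR adjusted p = 0.0611, 0.0903 and 0.0531), and C26_REVERBa over PBS_REVERBa had 450 genes.

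Leaving out 1 heart at a time, C26_REVERBa over C26_GFP had 1 to 5 members called and 295 to 1778 genes, with 5 members and 1778 genes without C26_REVERBa replicate 9. C26_REVERBa over PBS_REVERBa had 0 to 2 members and 476 to 1201 genes, with 2 members without that heart.

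Each log2 fold change that changed sign had not passed and lay near 0 in most cases. Sesn2 in PBS_REVERBa over PBS_GFP was -0.0258 in DESeq2, -0.0006759 with no filter, -0.0002678 with the compared groups alone and -0.03412 in limma voom. Its interaction was 0.01371 in DESeq2 and 0.04834 in limma voom, and in C26_REVERBa over C26_GFP it was 0.01422 in limma voom. Mthfd2 in C26_REVERBa over PBS_REVERBa was -0.06307 with the replicate block and -0.152 after thinning. Mthfd2 in PBS_REVERBa over PBS_GFP was 0.7306 after thinning, and its interaction 0.04133 in limma voom. The Trib3 interaction was -0.08471 after thinning, and Asns in C26_REVERBa over C26_GFP -0.007796 without libraries over 10000000 counts. The cause was not tested.

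Leaving out 1 heart, the following ranges crossed 0. In C26_GFP over PBS_GFP Chac1 ran between -0.002476 and 0.2282. In PBS_REVERBa over PBS_GFP Ddit3 ran between -0.1511 and 0.005464, Sesn2 between -0.09249 and 0.196, Psat1 between -0.3435 and 0.0003939, and Gdf15 between -0.09686 and 0.311. In the interaction Sesn2 ran between -0.2166 and 0.07146, and Mthfd2 between -0.3473 and 0.01935. In C26_REVERBa over PBS_REVERBa Atf4 ran between -0.0866 and 0.01604, and Mthfd2 between -0.09579 and 0.2685. In C26_REVERBa over C26_GFP Asns ran between -0.04594 and 0.2246, and Sesn2 between -0.04745 and 0.004838.

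Asns, Mthfd2 and Phgdh each held fewer than 10 counts in some libraries. How far depth and the spread between hearts each limit the calls of these genes was not tested.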
